A study of Mus musculus with 10 samples.

Results

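The catabolism of branched-chain amino acids, propionate and ketone bodies was described in brown adipose tissue (BAT) for 31 genes, chosen by name from the working list of the pathway out of 24454 genes in the count files. The tissue came from 10 male C57BL/6N mice aged 2 months and fed *ad libitum*, with 1 RNA-Seq library per mouse. All sample titles carry the label basal. *Stat5* Adipoq mice (5 libraries) lack *Stat5a* and *Stat5b* in adipocytes through Cre expressed from the *Adipoq* promoter, and the 5 controls carry the wild type label, while the methods describe them as floxed littermates without Cre. Whole tissue was sequenced, so cells other than adipocytes keep *Stat5*. Since the controls lack the Cre transgene, effects of the transgene and of the deletion cannot be told apart. Libraries held 8488129 to 19514904 counts, with medians of 10710575 in controls and 11671635 in *Stat5* Adipoq mice.

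Leucine, isoleucine and valine enter cells through amino acid transporters, lose their amino group to a transaminase, and are committed to oxidation by the branched-chain keto acid dehydrogenase of the mitochondrial matrix. Their carbon then leaves as acetyl-CoA, acetoacetate or propionyl-CoA, and propionyl-CoA is carboxylated by a biotin enzyme on its way to succinyl-CoA. Brown fat is known to take up and oxidise these amino acids during thermogenesis.

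Levels are given as CPM, counts scaled to a common library size with TMM factors. *Stat5a*, a deleted gene, was 109.8, 130.4, 92.6, 86.9 and 107 CPM in control replicates 1 to 5 and 20.7, 15.8, 16.2, 16.6 and 16.1 CPM in *Stat5* Adipoq replicates 1 to 5. *Stat5b* was 82, 84.8, 83.7, 76.6 and 91.9 CPM in controls and 21, 22, 21.4, 22.9 and 21.5 CPM in *Stat5* Adipoq mice. Both were low in all 5 *Stat5* Adipoq libraries with no overlap, as the labels require (log2 fold changes -2.62 ± 0.12 and -1.94 ± 0.06 SE). The brown adipocyte marker *Ucp1* was 5402 to 13831 CPM in controls and 7843 to 12661 CPM in *Stat5* Adipoq mice, so the tissue carried its defining transcript in every library.

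Of the 31 members 30 passed the filter on low counts, *Bdh1* being left out. With edgeR's quasi-likelihood test and Benjamini-Hochberg adjustment over 13568 genes at a threshold of 0.05, 5 members were higher in *Stat5* Adipoq BAT, where 1.40% of all tested genes were, and 1 was lower, against 1.31% of all tested genes. In either direction 6 of 30 were called, beside 2.71% of all genes. Members were chosen with earlier results of these data known, so these counts are a description and not independent support. *Bckdhb*, *Pcca*, *Bckdha*, *Mccc1* and *Pccb* were higher and *Echdc1* was lower. The count rests on calls of unequal strength, since *Bckdhb*, *Pcca* and *Echdc1* passed whichever of the 10 libraries was omitted, while *Mccc1* passed in 3, *Bckdha* in 2 and *Pccb* in 0 of these 10 fits. With all libraries, *Mccc1* and *Pccb* also missed the threshold without TMM scaling (adjusted p = 0.0724 and 0.0909, edgeR), without the filter on low counts (0.0553 and 0.0671) and with the replicate number as a block (0.0837 and 0.103), at log2 fold changes of 0.20 to 0.22 for *Mccc1* and 0.18 to 0.20 for *Pccb*. Omitting control 2, 4 or 5, or *Stat5* Adipoq library 3, 4 or 5, brought the count down to 3. Values of the genotypes did not overlap for 8 members, against 4.39% of all genes. The 30 tested members had a median log2 fold change of 0.05, with 18 of them above 0, while 49.2% of all genes were above 0. DESeq2 called 8 members, beside 4.99% of its tested genes, adding *Auh* and *Acad8*.

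**Figure D1:**
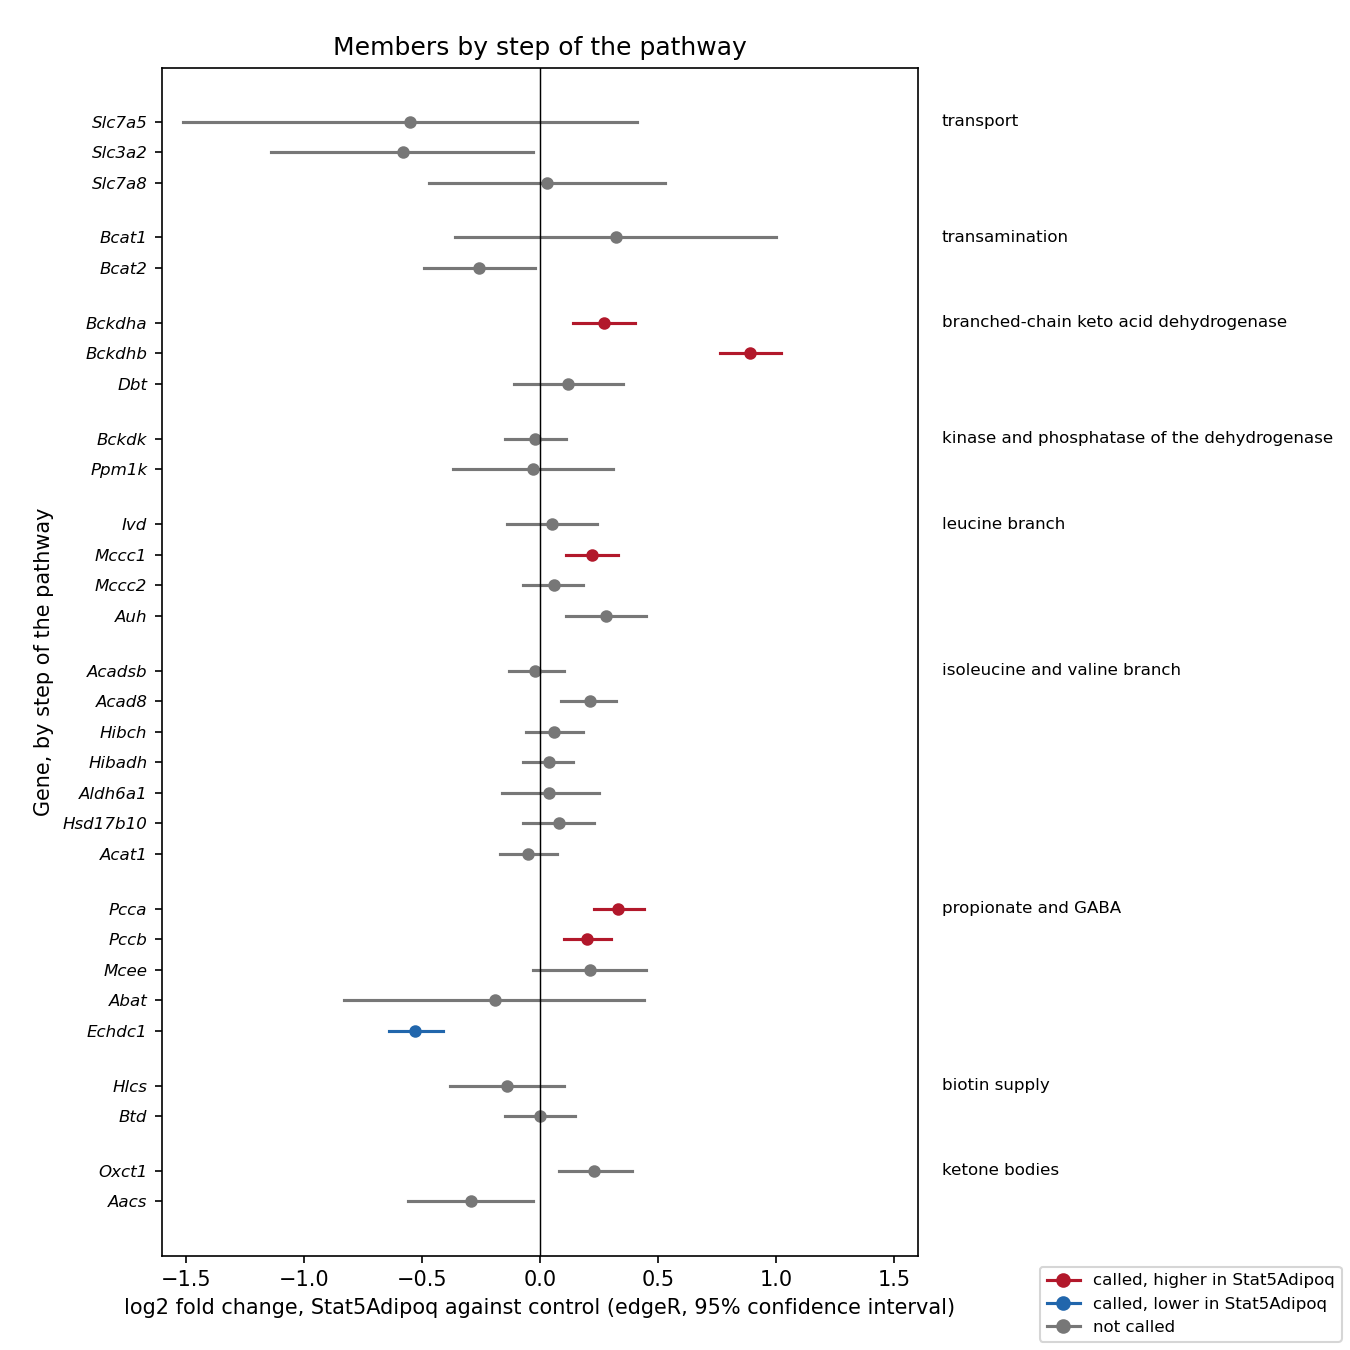
Log2 fold changes of the 30 tested members, *Stat5* Adipoq against control (x axis, points with 95% confidence intervals), in order of the step of the pathway (y axis). *Bckdhb*, at 0.89, lies farthest to the right, and *Echdc1*, at -0.53, is the called member to the left of 0.

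Transport is represented by *Slc3a2*, the heavy chain shared by several amino acid exchangers, and by the light chains *Slc7a5* and *Slc7a8*. *Slc3a2* was 94.8, 65.5, 149.6, 115 and 51 CPM in controls and 45.4, 57.4, 62.4, 84.6 and 68.9 CPM in *Stat5* Adipoq mice. Control replicate 3 was highest and the genotypes overlapped, with a log2 fold change of -0.58 ± 0.26 SE that was not called (adjusted p = 0.305, edgeR) and was -0.37 without that library. *Slc7a5*, with 2 to 24 counts per library, and *Slc7a8*, with 31 to 93, had log2 fold changes of -0.55 (95% confidence interval -1.51 to 0.41) and 0.03 (-0.47 to 0.53), and neither was called. With 1 library left out, the value of *Slc7a5* ran from -0.80 to -0.32. Per kilobase of mRNA, *Slc3a2* stood at 33.9 RPKM in controls, against 1.14 for *Slc7a8* and 0.232 for *Slc7a5*.

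Transamination is carried out in mitochondria by *Bcat2* and in the cytosol by *Bcat1*. *Bcat2* was 167, 143, 128, 144 and 121 CPM in controls and 149, 105, 107, 112 and 116 CPM in *Stat5* Adipoq mice. *Stat5* Adipoq replicate 1 lay among the controls while the other 4 lay below all of them, and the log2 fold change of -0.26 ± 0.11 SE was not called (adjusted p = 0.277, edgeR). *Bcat1* had 8 to 34 counts per library. In controls *Bcat2* stood at 67.6 RPKM and *Bcat1* at 0.151 RPKM, so nearly all transaminase mRNA was of the mitochondrial form.

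The dehydrogenase complex gave the largest rise of any member. *Bckdhb*, which encodes the beta subunit of its decarboxylase (Entrez 12040, chromosome 9 from 83925111 to 84124240 of GRCm38), was 98.1, 97.9, 100.3, 95.6 and 84.8 CPM in controls and 188, 165, 179, 175 and 175 CPM in *Stat5* Adipoq mice. Every *Stat5* Adipoq library lay far above the highest control. The log2 fold change was 0.89 ± 0.06 SE (95% confidence interval 0.76 to 1.02, n = 5 per genotype, adjusted p = 1.26e-05, edgeR). An exact two-sided permutation test gave p = 0.00794, the smallest that 252 assignments of the libraries allow. *Bckdha*, the alpha subunit (Entrez 12039, chromosome 7 from 25629852 to 25658782), was 731, 790.2, 677, 768 and 768 CPM in controls and 867, 873, 841, 969 and 946 CPM in *Stat5* Adipoq mice. The genotypes did not overlap, with control replicate 3 lowest, and the log2 fold change was 0.27 ± 0.06 SE (adjusted p = 0.0365, edgeR). Antisense exons of *B3gnt8* overlap 61.7% of *Bckdha* exon sequence, and the strand setting of the counting is not given in the sources used here. *B3gnt8* itself was at 1.84 ± 0.455 CPM in controls and 1.63 ± 0.296 CPM in *Stat5* Adipoq mice (SD, n = 5). *Dbt*, the transacylase core of the complex, was 245 to 377 CPM in controls and 278 to 333 CPM in *Stat5* Adipoq mice, and its log2 fold change of 0.12 ± 0.11 SE was not called. Control replicate 3 was the highest library at 377 CPM, the other controls lay between 245 and 276 CPM, below all *Stat5* Adipoq libraries, and without it the log2 fold change was 0.24 (adjusted p = 0.057, edgeR).

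Subunit balance was followed as the log2 ratio of CPM within each library, for 8 pairs of partners. The *Bckdhb*/*Bckdha* ratio was -2.89, -3.01, -2.75, -3.00 and -3.17 in controls and -2.20, -2.40, -2.23, -2.46 and -2.43 in *Stat5* Adipoq mice. All 5 *Stat5* Adipoq ratios exceeded the highest control, a mean difference of 0.62 (exact permutation p = 0.00794, adjusted over 8 pairs 0.0317). The *Bckdhb*/*Dbt* ratio differed by 0.75, again without overlap (exact permutation p = 0.00794, adjusted 0.0317), whereas *Bckdha*/*Dbt* differed by 0.13 with overlap (exact permutation p = 0.579, adjusted 0.662). The beta subunit message moved more than those of both partners. Between *Bckdk*, the kinase that inactivates the complex, and *Ppm1k*, the phosphatase that restores it, the ratio differed by 0.01 (exact permutation p = 0.968, adjusted 0.968).

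*Bckdk* was 183, 184, 168, 154 and 182 CPM in controls and 178, 175, 162, 173 and 169 CPM in *Stat5* Adipoq mice. The *Stat5* Adipoq values lay inside the control range, with a log2 fold change of -0.02 (95% confidence interval -0.15 to 0.11). *Ppm1k* ranged from 30.8 to 51.5 CPM in controls and from 33.6 to 53 CPM in *Stat5* Adipoq mice, with a log2 fold change of -0.03 (95% confidence interval -0.37 to 0.31). Neither was called.

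**Figure D2:**
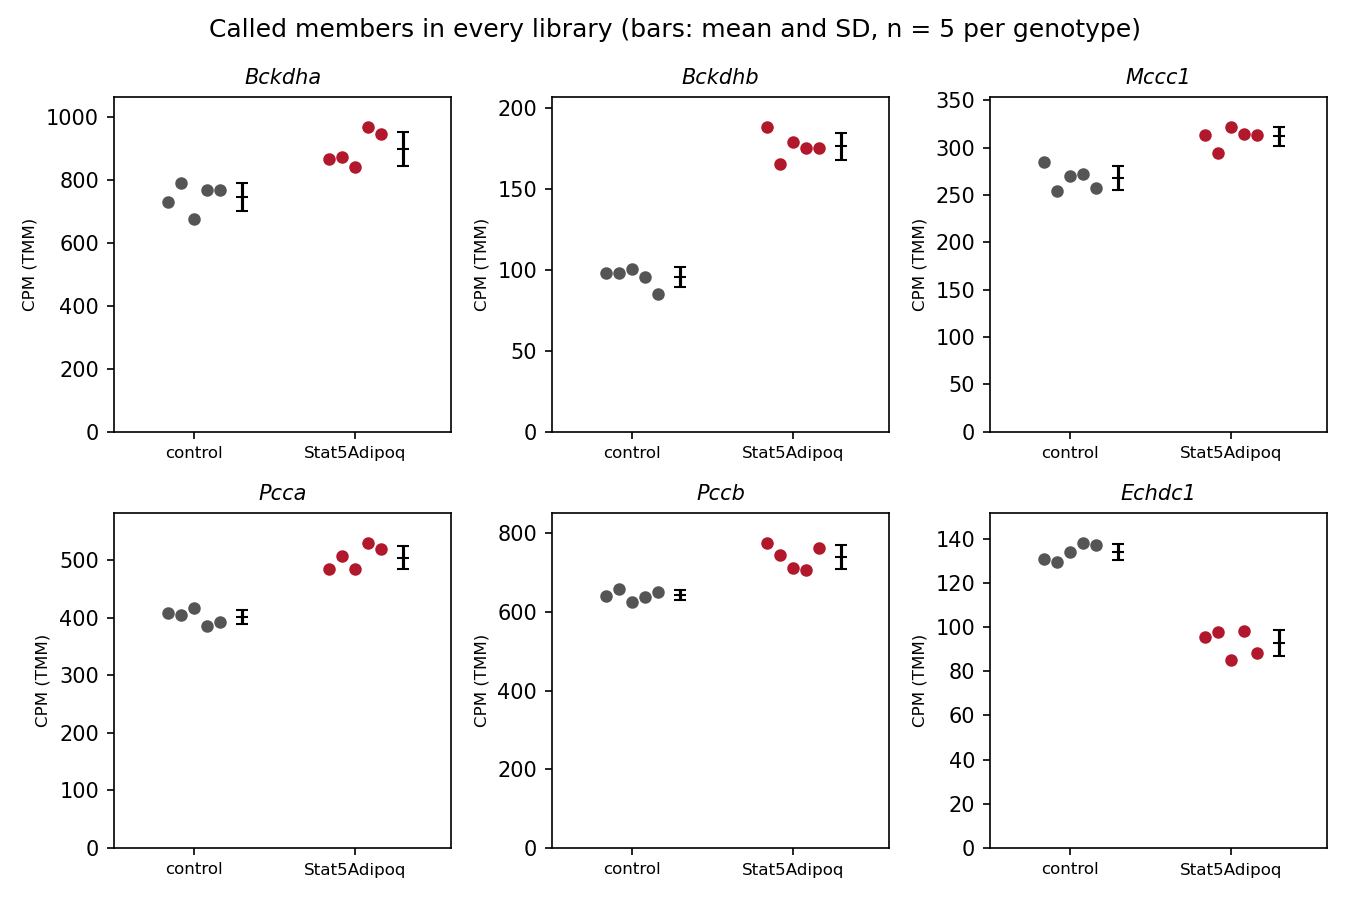
CPM of the 6 called members in every library (points), with the mean and SD of 5 libraries per genotype (bars); the y axes start at 0. The genotypes do not overlap for any of the 6 genes, and relative to the level the gap is widest for *Bckdhb*, at 84.8 to 100.3 CPM in controls and 165 to 188 CPM in *Stat5* Adipoq mice.

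In the leucine branch, *Mccc1* encodes the biotin-carrying subunit of methylcrotonyl-CoA carboxylase (Entrez 72039, chromosome 3 from 35956292 to 36000694). It was 285, 254, 270.1, 272 and 258 CPM in controls and 313, 295, 322, 315 and 314 CPM in *Stat5* Adipoq mice. All *Stat5* Adipoq values exceeded the highest control, replicate 1, and the log2 fold change was 0.22 ± 0.05 SE (adjusted p = 0.0374, edgeR). Its partner *Mccc2* was 157 to 177 CPM in controls and 162 to 183 CPM in *Stat5* Adipoq mice and was not called. The *Mccc1*/*Mccc2* ratio differed by 0.16 with overlap (exact permutation p = 0.0238, adjusted over 8 pairs 0.0476) and passed in 2 of the 10 leave-one-out tests. *Auh*, the hydratase of the next step, was 91.1, 91.6, 76.5, 89 and 92.8 CPM in controls and 123, 114, 94.8, 103 and 100.3 CPM in *Stat5* Adipoq mice. The genotypes did not overlap, though *Stat5* Adipoq replicate 3 came close to control replicate 5, and the log2 fold change of 0.28 ± 0.08 SE missed the threshold (adjusted p = 0.097, edgeR; 0.0315, DESeq2). *Ivd*, the isovaleryl-CoA dehydrogenase, was 289 to 380.2 CPM in controls and 310.0 to 401 CPM in *Stat5* Adipoq mice.

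Of the 7 members of the isoleucine and valine branch 0 were called by edgeR, 1 had an unadjusted p below 0.05, beside 15.2% of all tested genes, and 1 was called by DESeq2. That gene was *Acad8*, the isobutyryl-CoA dehydrogenase of valine breakdown, at 112, 117, 99.5, 104 and 106 CPM in controls and 121, 122, 125, 129 and 124 CPM in *Stat5* Adipoq mice. Its genotypes did not overlap, and its log2 fold change was 0.21 ± 0.05 SE (adjusted p = 0.0697, edgeR; 0.0101, DESeq2). *Acat1*, the mitochondrial thiolase and the most abundant member of the branch per length, was 1008, 989, 1046, 921 and 919 CPM in controls and 953, 992, 936, 884 and 951 CPM in *Stat5* Adipoq mice. These ranges overlapped broadly. *Hibch*, *Hibadh*, *Aldh6a1*, *Hsd17b10* and *Acadsb*, the other members of the branch, had log2 fold changes from -0.02 to 0.08.

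Propionyl-CoA carboxylase is built from the biotin-carrying *Pcca* and the *Pccb* subunit. *Pcca* (Entrez 110821, chromosome 14 from 122484365 to 122889944) was 407, 405, 416, 386 and 392 CPM in controls and 484, 506, 484, 529 and 519 CPM in *Stat5* Adipoq mice. *Pccb* (Entrez 66904, chromosome 9 from 100982032 to 101034940) was 639.6, 659, 626, 639 and 650.0 CPM in controls and 775, 744, 711, 707 and 762 CPM in *Stat5* Adipoq mice. For both subunits the controls were tightly grouped and every *Stat5* Adipoq library lay above them. Log2 fold changes were 0.33 ± 0.05 SE for *Pcca* (adjusted p = 0.00382, edgeR) and 0.20 ± 0.05 SE for *Pccb* (adjusted p = 0.0397, edgeR), and the *Pcca*/*Pccb* ratio differed by 0.13 with overlap (exact permutation p = 0.0238, adjusted over 8 pairs 0.0476), which passed in 2 of the 10 leave-one-out tests. *Mcee*, the epimerase that follows, was 94.7 to 138 CPM in controls and 106 to 142 CPM in *Stat5* Adipoq mice and was not called. *Abat*, the GABA transaminase, had 14 to 82 counts per library and was not called.

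*Echdc1*, a cytosolic decarboxylase that removes ethylmalonyl-CoA formed by side reactions of carboxylases (Entrez 52665, chromosome 10 from 29298144 to 29346661), was 131, 129.7, 134, 138 and 137 CPM in controls and 95.7, 97.6, 85.3, 98.4 and 88.2 CPM in *Stat5* Adipoq mice. Every *Stat5* Adipoq library lay well below the lowest control. The log2 fold change was -0.53 ± 0.05 SE (95% confidence interval -0.64 to -0.41, adjusted p = 4.98e-04, edgeR). Antisense exons of other genes, *Rnf146* among them, overlap 86.4% of its exon sequence. Without a stated strand setting it is not known whether reads from the shared sequence were counted, or for which gene. *Rnf146* was counted at 35.5 ± 1.83 CPM in controls and 31 ± 1.88 CPM in *Stat5* Adipoq mice (SD, n = 5) and was not called (log2 fold change -0.20 ± 0.06 SE, adjusted p = 0.13, edgeR).

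Biotin is attached to the carboxylases by *Hlcs* and recycled by *Btd*. *Btd* was 48.1, 47.6, 49.8, 54.9 and 45.4 CPM in controls and 46.4, 48.7, 47.4, 56 and 47.2 CPM in *Stat5* Adipoq mice. The genotypes were interleaved (log2 fold change 0.00, 95% confidence interval -0.15 to 0.15). *Hlcs* was 11.7 to 15.2 CPM in controls and 9.74 to 13.3 CPM in *Stat5* Adipoq mice and was not called.

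Ketone bodies are used through *Oxct1*, the transferase that activates acetoacetate in mitochondria, and *Aacs*, which activates it in the cytosol for lipid synthesis. *Aacs* was 612, 705, 599.7, 585 and 685 CPM in controls and 415, 406, 579.7, 623 and 582 CPM in *Stat5* Adipoq mice. *Stat5* Adipoq replicates 1 and 2 were far below the rest while the other 3 were near the controls, and the log2 fold change of -0.29 ± 0.12 SE was not called (adjusted p = 0.28, edgeR). *Oxct1* was 286 to 324 CPM in controls and 309 to 406 CPM in *Stat5* Adipoq mice, with a log2 fold change of 0.23 ± 0.07 SE (adjusted p = 0.123, edgeR) that was called only without *Stat5* Adipoq replicate 2 among the leave-one-out fits. The *Oxct1*/*Acat1* ratio differed by 0.28 (exact permutation p = 0.0317, adjusted over 8 pairs 0.0508), and *Slc7a5*/*Slc3a2* by 0.21 (exact permutation p = 0.524, adjusted 0.662), a value that ran from 0.03 to 0.39 with 1 library left out and was 0.37 with a pseudocount of 2 CPM. *Bdh1*, the hydroxybutyrate dehydrogenase, had 0 to 6 counts per library and was not tested.

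Ordered by level per length in controls, *Bckdha* stood first at 393 ± 23.5 RPKM (SD, n = 5), above *Acat1* at 287 ± 16.4 RPKM. *Acat1*, *Pccb*, *Hibadh* and *Aldh6a1* followed each other with overlapping ranges. *Bckdhb* ranked 18 of the 30 tested members at 64.6 ± 4.15 RPKM, below both its partners *Bckdha* and *Dbt*, the latter at 85.8 ± 16.3 RPKM. In *Stat5* Adipoq BAT *Bckdhb* reached 119 ± 5.71 RPKM, above *Dbt* at 93.3 ± 6.37 RPKM.

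Of 44 other genes of these pathways 38 were tested, 2 were higher and 4 lower, beside 1.40% and 1.31% of all tested genes. The higher genes were *Hadha* (log2 fold change 0.30 ± 0.07 SE) and *Hadhb* (0.38 ± 0.05 SE), the subunits of the mitochondrial trifunctional protein, called in 2 and 10 of the 10 leave-one-out fits. Pyruvate carboxylase, a further biotin enzyme listed as *Pcx*, was 1683, 1642, 1443, 1459.9 and 1660.5 CPM in controls and 1286, 1179, 1057, 1164 and 1066 CPM in *Stat5* Adipoq mice. It was lower in every *Stat5* Adipoq library than in any control (log2 fold change -0.46 ± 0.07 SE, adjusted p = 0.00548, edgeR), opposite in direction to the biotin-carrying *Pcca* and *Mccc1*. Also lower were *Acat2*, the cytosolic thiolase, with a log2 fold change of -0.47 ± 0.08 SE, and *Slc43a1*, a transporter of large neutral amino acids, with -1.02 ± 0.20 SE. *Pcx* and *Acat2* were called in all 10 leave-one-out fits and *Slc43a1* in 8. *Slc5a6*, which imports biotin, had genotypes that did not overlap and did not pass the threshold in the main edgeR fit, while DESeq2, edgeR with the replicate number as a block or with robust dispersion estimates, and edgeR without control replicate 3 called it (log2 fold change -0.40 ± 0.10 SE, adjusted p = 0.0604, edgeR; 0.0111, DESeq2).

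Among 18 genes of the TCA cycle, 3 were higher and 0 lower, beside the same 1.40% and 1.31% of all tested genes, namely *Idh2* (log2 fold change 0.50 ± 0.07 SE), *Suclg1* (0.30 ± 0.05 SE) and *Suclg2* (0.24 ± 0.05 SE), and the list's median was 0.11. Leave-one-out fits called *Idh2* and *Suclg1* in all 10 and *Suclg2* in 4. *Suclg1* and *Suclg2* encode subunits of succinyl-CoA ligase, which acts on the product of propionate breakdown. Among 19 genes of mitochondrial beta-oxidation, 3 were higher and 0 lower, beside these shares, namely *Acadl* (log2 fold change 0.26 ± 0.05 SE), *Hadha* and *Hadhb*, with a median of 0.13, and *Acadl* was called in 6 of the 10 leave-one-out fits. With all libraries, *Suclg2* and *Acadl* missed the threshold with the replicate number as a block, and *Suclg2* also without TMM scaling. Neither was called without the 2 controls highest in muscle RNA. DESeq2 called 6 TCA cycle and 5 beta-oxidation genes, and edgeR with 1 library left out called 2 to 4 and 1 to 4. In these lists 17 of 18 and 17 of 19 genes had log2 fold changes above 0, against 18 of the 30 tested members, and whether the lists differ from the members was not tested.

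Genes around the called members were counted within 5 Mb on either side, as a description without a test. Near *Bckdhb* 5 of 32 tested genes were called (15.6%, beside 2.71% of all genes), 2 higher and 3 lower. *Elovl4*, an elongase of very long fatty acids and the nearest tested gene, lies 119 kb away on chromosome 9 from 83778692 to 83806305. It was 0.766, 0.635, 0.601, 1.06 and 0.731 CPM in controls and 1.76, 2.31, 3.32, 3.64 and 2.4 CPM in *Stat5* Adipoq mice. Levels were low in both genotypes but did not overlap (log2 fold change 1.75 ± 0.26 SE, adjusted p = 0.00445, edgeR). *Zfp949* was also higher (0.88 ± 0.14 SE), while *Fam46a* (-0.52 ± 0.09 SE), *Ibtk* (-0.30 ± 0.07 SE) and *Me1*, the cytosolic malic enzyme (-0.60 ± 0.11 SE), were lower. Of these 5, *Ibtk* was called in 2 of the 10 leave-one-out fits and the others in all 10. Near *Pcca* 2 of 23, near *Echdc1* 3 of 33, near *Bckdha* 3 of 156, near *Mccc1* 1 of 46 and near *Pccb* 1 of 54 tested genes were called.

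**Figure D3:**
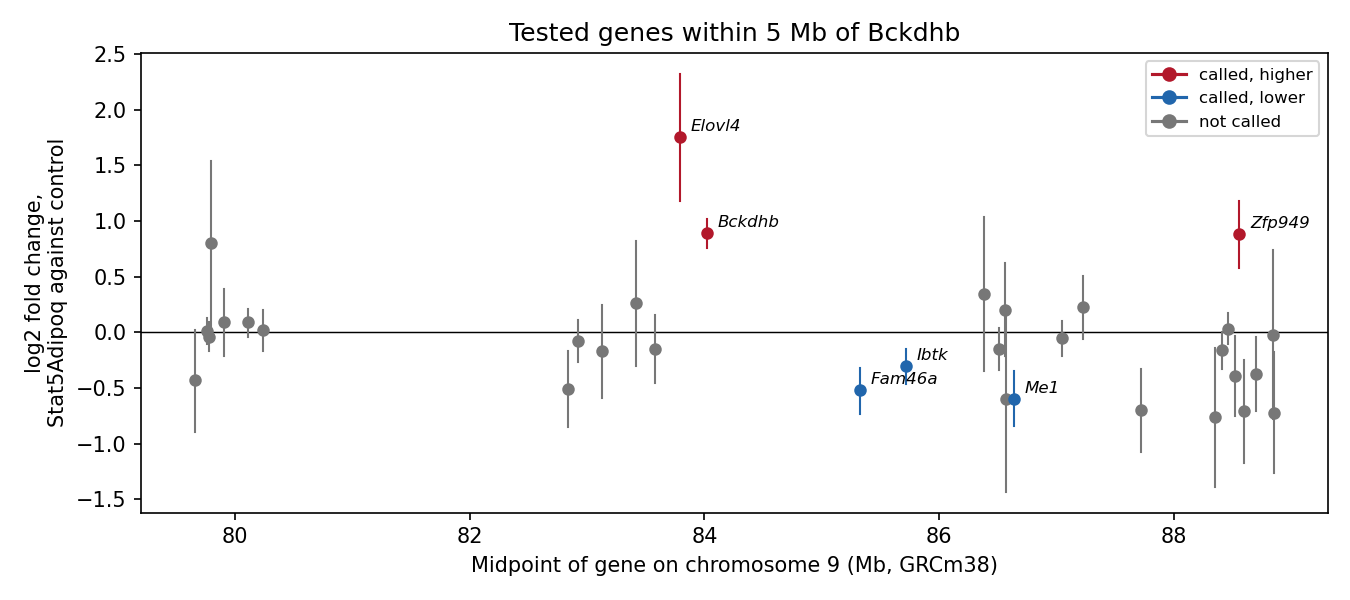
Log2 fold changes with 95% confidence intervals (y axis) of tested genes within 5 Mb of *Bckdhb*, at the midpoint of each gene on chromosome 9 in Mb (x axis). *Elovl4*, at 1.75, and *Bckdhb*, at 0.89, are next to each other among tested genes and both higher, while *Fam46a*, *Ibtk* and *Me1* are lower.

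Promoters from RefSeq (GRCm38.p6), 300 bases around an annotated start, were found for 27 members, as 36 windows. Some members had a second window. Both windows of *Echdc1*, and the second of *Bckdhb* and of *Pcca*, lay inside the gene coordinates printed above. All windows were searched for TTCNNNGAA, which reads the same on both strands and is the core STAT5 motif named in the methods. It occurred for 2 of the 27 members, and in 9.55% of all genes with a promoter in the table. The matches were in *Pccb*, which was called, and *Ivd*, which was not. The 250 bases before each start are shown because these are the members with a match, with the motif in capitals, at chr9:101034885-101035134 on the minus strand and chr2:118861744-118861993 on the plus strand.
Pccb: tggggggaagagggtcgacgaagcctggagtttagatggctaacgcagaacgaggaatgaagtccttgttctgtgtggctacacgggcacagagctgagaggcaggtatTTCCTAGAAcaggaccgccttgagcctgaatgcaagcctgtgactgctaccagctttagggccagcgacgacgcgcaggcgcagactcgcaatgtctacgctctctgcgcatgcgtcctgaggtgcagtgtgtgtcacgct
Ivd: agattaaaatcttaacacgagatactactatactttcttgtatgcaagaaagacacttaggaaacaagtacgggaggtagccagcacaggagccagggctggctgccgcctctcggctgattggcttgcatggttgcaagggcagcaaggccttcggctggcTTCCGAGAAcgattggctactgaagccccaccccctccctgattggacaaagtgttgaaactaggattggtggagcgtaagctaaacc
A match or its absence describes letters in this window only, and the paper searched a far longer stretch upstream for its own genes of interest. *Bckdhb*, *Bckdha*, *Mccc1*, *Pcca* and *Echdc1* had no match in theirs.

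Markers of other cell types varied between libraries. The 10 skeletal muscle markers summed to 59.5, 16.7, 3824, 4.7 and 309 CPM in controls and 44, 2.5, 6, 18.6 and 16.9 CPM in *Stat5* Adipoq mice, with *Myh4* the most abundant. Control replicates 3 and 5 were highest, none of the 10 was called by edgeR, all 10 had an unadjusted p below 0.05, and DESeq2 called 4. Without these 2 controls, chosen after the values were seen, 3 members were called, and log2 fold changes were 0.86 for *Bckdhb*, 0.34 for *Pcca* and -0.51 for *Echdc1*, close to those with all libraries. *Bckdha*, *Mccc1* and *Pccb* were not called there, at log2 fold changes of 0.24, 0.21 and 0.19, against 0.27, 0.22 and 0.20 with all libraries. That fit had fewer libraries. Over all genes it called 159 higher and 180 lower, against 190 and 178 with all libraries, while 2 members were higher, against 5.

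The 12 liver markers summed to 107, 99.3, 302, 191 and 61.6 CPM in controls and 85.3, 31.9, 34, 35.5 and 31.5 CPM in *Stat5* Adipoq mice, with *Cyp2e1* the most abundant and the 1 called gene (log2 fold change -1.67 ± 0.38 SE). Of these markers 11 were tested, all 11 had log2 fold changes below 0 (list median -2.86), and 4 had an unadjusted p below 0.05. Their part in the results was not tested. Of 8 white adipocyte markers 6 were tested, 5 of them had log2 fold changes below 0 (list median -1.14), and 1 was called by edgeR, *Retn* (-1.53 ± 0.31 SE), where DESeq2 called 3 lower. *Tcf21* was at 0 in every library. Of 12 brown adipocyte markers 6 had log2 fold changes above 0 and 6 below (list median 0.02), and 1 was called, *Cox7a1* (0.29 ± 0.07 SE). Of 10 Schwann cell markers edgeR called 1, *S100b*, which was higher (1.07 ± 0.12 SE) and ran against its list. The other 9 had log2 fold changes below 0 (list median -0.80), 6 of them lower at an unadjusted p below 0.05, and DESeq2 called 1 lower. In leave-one-out fits *S100b* was called in 10, *Retn* in 6, *Cox7a1* in 3 and *Cyp2e1* in 2 of 10. By edgeR, 0 of 10 macrophage, 10 endothelial, 10 fibroblast and preadipocyte and 8 tested lymphocyte markers were called, with 0, 2, 0 and 2 at an unadjusted p below 0.05, beside 15.2% of all tested genes, and DESeq2 also called 0. Their most abundant genes were *Lyz2*, *Kdr*, *Col3a1* and *Cd4*. In whole tissue, fewer cells of a type and less RNA per cell cannot be told apart.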

How the data were processed

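BAT of 5 control and 5 *Stat5* Adipoq mice was sequenced with a stranded kit and single reads of 50 bases. The authors aligned reads to GRCm38 with STAR 2.5.0b and counted exons with featureCounts 1.5.0-p1, and the deposited values are raw counts per gene. The methods name an Ensgene annotation, while the count rows carry Entrez identifiers. The exons counted may therefore differ from those behind the RPKM values and the exon overlaps given here. The authors' comparison table (DESeq2 fold changes and p-values) was used only to pair Entrez identifiers with symbols. Groups came from sample titles.

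Genes with a size factor normalised row sum above 45 were tested with edgeR 4.0.16 (quasi-likelihood F test, TMM, no covariate), with Benjamini-Hochberg adjustment at 0.05. The SE of a log2 fold change was derived as its absolute value divided by the square root of F. Confidence intervals were built from this SE. DESeq2 1.42.0, limma-voom 3.58.1, other scalings and filters, a replicate block and leaving out each library were alternatives. Ratios used a pseudocount of 0.5 CPM. RPKM is CPM per kilobase of the longest RefSeq-paired GENCODE transcript. Depth was 8488129 to 19514904 counts per library, which leaves genes of few counts with wide intervals. No 2 libraries agreed within sampling noise.

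Members and lists were chosen with earlier results of these data known. Named were the called and non-overlapping members and the most abundant per length of each step with every value, called genes of other lists, and the most abundant marker of each list. One called gene of the other pathway genes is counted but not reported here. Neighbours of called members, and *Slc5a6*, were named after their values were seen.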

Additional observations from a re-analysis of the deposited data

Results flagged for a closer look

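In 166 groups of 5 libraries, 1 library stood far from the others of its genotype 19 times (Dixon ratio above 0.71), where chance alone gives about 8.3 such cases. *Bcat1* was 1.72 CPM in control replicate 4 and between 0.962 and 1.1 CPM in the rest of its group. *Bcat2* was 149 CPM in *Stat5* Adipoq replicate 1 and between 105 and 116 CPM in the rest of its group. *Dbt* was 377 CPM in control replicate 3 and between 245 and 276 CPM in the rest of its group. *Ppm1k* was 53 CPM in *Stat5* Adipoq replicate 1 and between 33.6 and 38.8 CPM in the rest of its group. *Auh* was 76.5 CPM in control replicate 3 and between 89 and 92.8 CPM in the rest of its group. *Btd* was 56 CPM in *Stat5* Adipoq replicate 4 and between 46.4 and 48.7 CPM in the rest of its group. *Stat5a* was 20.7 CPM in *Stat5* Adipoq replicate 1 and between 15.8 and 16.6 CPM in the rest of its group. *Hadhb* was 554 CPM in *Stat5* Adipoq replicate 4 and between 498 and 509 CPM in the rest of its group. *Abcc4* was 50.5 CPM in *Stat5* Adipoq replicate 4 and between 58.6 and 60.7 CPM in the rest of its group. *Ptprk* was 12.2 CPM in control replicate 4 and between 7.9 and 8.86 CPM in the rest of its group. *Myh4* was 1496 CPM in control replicate 3 and between 1.31 and 87.5 CPM in the rest of its group. *Kdr* was 277 CPM in control replicate 5 and between 239 and 248 CPM in the rest of its group. *Col3a1* was 826 CPM in *Stat5* Adipoq replicate 1 and between 428 and 539 CPM in the rest of its group. *Cyp2e1* was 82 CPM in *Stat5* Adipoq replicate 1 and between 23.7 and 32.3 CPM in the rest of its group. The skeletal muscle markers summed to 3824 CPM in control replicate 3 and between 4.7 and 309 CPM in the rest of its group. The macrophage markers summed to 234 CPM in control replicate 4 and between 175 and 191 CPM in the rest of its group. The macrophage markers summed to 148 CPM in *Stat5* Adipoq replicate 3 and between 183 and 195 CPM in the rest of its group. The liver markers summed to 85.3 CPM in *Stat5* Adipoq replicate 1 and between 31.5 and 35.5 CPM in the rest of its group. The *Bckdhb*/*Dbt* log2 ratio was -1.91 in control replicate 3, against -1.52 to -1.38 in the rest of its group.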

How the results depend on the processing

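*Bckdhb*, *Pcca* and *Echdc1* were called in all 19 alternatives. Over the fits of tested members, 511 kept direction and side of the threshold, 34 lost the call, 3 gained one and 21 changed sign, each of the last in a gene that was not called. DESeq2 called 660 genes, against 368 by edgeR, and 10 other pathway genes, 6 TCA cycle genes and 5 beta-oxidation genes, against 6, 3 and 3. Without the 2 controls highest in muscle RNA, 339 genes and 3 members were called, against 368 genes and 6 members. Log2 fold changes of *Bckdha*, *Mccc1* and *Pccb*, no longer called, were 0.24, 0.21 and 0.19, against 0.27, 0.22 and 0.20.

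With 1 library left out, fewer samples gave 185 to 443 genes, 3 to 5 members, 4 to 7 other pathway genes, 2 to 4 TCA cycle genes, 1 to 4 beta-oxidation genes and 2 to 4 ratio pairs called. Omitting control 1, 2 or 4, or *Stat5* Adipoq library 3, 4 or 5, lowered the count of all genes by over 1.5 times. The same held for beta-oxidation genes with control 2 or 4, or *Stat5* Adipoq library 3 or 5, omitted, and for ratio pairs with control 1, 2, 4 or 5, or *Stat5* Adipoq library 3, 4 or 5, omitted.

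Signs changed in values near 0. *Slc7a8* was -0.03 by limma-voom and with the replicate block, and -0.02 without the 2 controls, where *Ivd* was -0.01 and *Aldh6a1* -0.02. Over single libraries left out, log2 fold changes ran from -0.22 to 0.16 for *Slc7a8*, -0.07 to 0.00 for *Bckdk*, -0.17 to 0.07 for *Ppm1k*, -0.01 to 0.09 for *Ivd*, -0.04 to 0.01 for *Acadsb*, -0.02 to 0.10 for *Aldh6a1* and -0.05 to 0.04 for *Btd*. The ratio differences ran from -0.01 to 0.19 for *Bckdha*/*Dbt* and -0.07 to 0.11 for *Bckdk*/*Ppm1k*.

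With the replicate number as a block, 273 genes, 4 members, 7 other pathway genes, 2 TCA cycle genes and 2 beta-oxidation genes were called. Deviations of same-numbered libraries from their genotype means correlated at -0.23, 0.09, -0.1, 0.05 and -0.13, and not every library correlated best with its own number. These values showed no clear pairing by number, but with 5 libraries per genotype they cannot exclude a weak one.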
